A study of Mus musculus with 12 samples.

Results

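The entry into the cell cycle is gated by a small set of genes, and 10 of them were followed here through cultured mouse astrocytes: the CDK inhibitors Cdkn1a, Cdkn1b, Cdkn2a, Cdkn2b and Cdkn2c, the D cyclins Ccnd1, Ccnd2 and Ccnd3, and Trp53 with Mdm2. They were taken by name from the 18903 genes of the count table, and all 10 passed the filter on low counts that left 17938 genes for testing. The names were chosen without reference to a measured value of the members, though with results of the same libraries known.

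D cyclins bind CDK4 and CDK6, and the active kinases phosphorylate the retinoblastoma protein, which releases E2F factors and lets a cell begin DNA synthesis. The INK4 proteins occupy CDK4 and CDK6 and keep the D cyclins off them, while the CIP/KIP proteins p21 and p27 bind the assembled cyclin and kinase. p53 raises p21 and its own ubiquitin ligase MDM2, and the alternative product of the Cdkn2a locus, p19Arf, holds MDM2 away from p53. In primary cells the Cdkn2a and Cdkn2b products are known to build up with time in culture, and D cyclins to respond to mitogens in the medium.

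The astrocytes came from brains of Rack7-cKO mice (hGFAP-Cre::Rack7 fl/fl) and WT mice (hGFAP-Cre::Rack7 +/+), so that the control mice carried the Cre transgene as well. Brains were taken on postnatal day 1 (P1), 6 (P6) or 8 (P8), stripped of meninges, dissociated and kept in primary astrocyte medium; flasks were then shaken to remove microglia and oligodendrocytes, and the cells were grown on to confluence. The age in a group's name is therefore the age of the brain and not that of the culture, and the methods give 1 culture schedule for all ages. Each of the 6 groups held 2 libraries labelled as biological replicates. The sources used here do not say whether a library came from 1 animal or from pooled animals, and the p-values measure the spread between those libraries. The Cre is driven by the human GFAP promoter and acts from embryonic neural stem cells of the dorsal forebrain onwards, so neurons and glia descended from them share the deletion, whereas microglia, fibroblasts and vessels do not arise from that lineage. Mice of both sexes were used in the study.

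The counts in a library added up to between 54413504 and 89183250, and levels are given as CPM, the counts of a gene for every 1000000 counts of a library size scaled by the trimmed mean of M values (TMM). Zmynd8, the gene for RACK7, reached at most 136 CPM in a WT library and at least 160.4 CPM in a cKO library, with log2 differences of 0.65, 1.04 and 0.70 at P1, P6 and P8 (SE 0.047 for each), so the gene to be deleted stood higher under the label cKO. In the transcript that the methods give for the allele, 161 of 6188 bases lie in exons 3 and 4, which are taken out. Counts over the whole gene therefore do not check the deletion, and groups are called below by their labels. The paper checked RACK7 protein in WT and cKO primary astrocytes by immunoblot. It also reports far fewer genomic sites bound by RACK7 in cKO than in WT astrocytes. Markers of other cells were present as well. The 8 fibroblast markers summed to 406 to 419 CPM in the P1 WT libraries and to 2489 to 2519.5 in the P1 cKO libraries. At P6 the sums were 6807 to 6852 in WT and 2524 to 2697 in cKO libraries, while those of P8 were 26288 to 26415 and 8304 to 8560.3. All 8 genes changed in these directions at each age. The 10 microglia markers reached 5376 to 5427 CPM in the P8 cKO libraries against 2634 to 2779 in the P8 WT libraries. The 10 astrocyte markers reached 708 to 717 against 1594 to 1966. By group means only the microglia marker Tmem119 (22.9 CPM in P8 cKO, 59.8 in P8 WT) and the astrocyte marker Aldh1l1 (72.7 and 51.8) went against their sums. No marker was at 0 in all libraries, but the fibroblast marker Lum had a mean of 0.0 CPM in the P6 cKO libraries against 7.89 in the P6 WT libraries, and the ependymal marker Tmem212 a mean of 0.0 CPM in the P1 WT and P6 WT libraries. In such bulk samples fewer cells of a type and less RNA per cell cannot be told apart, and the part that the mix of cells plays in the results below was not tested.

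**Figure D1:**
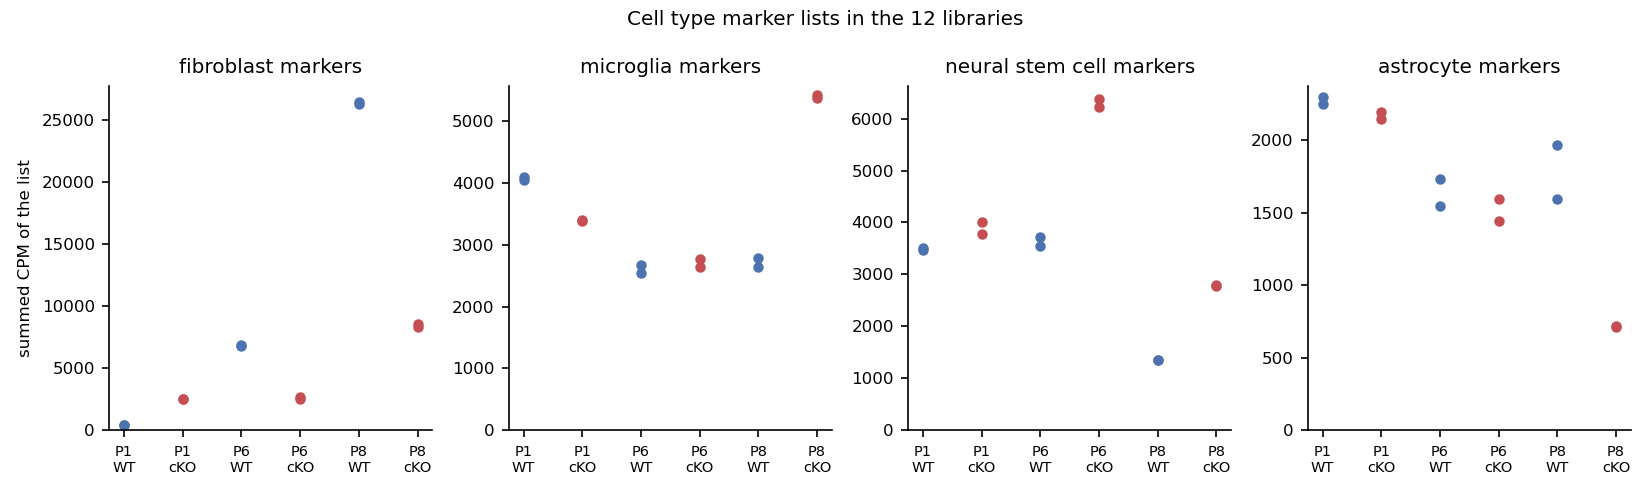
Summed CPM of 4 cell type marker lists in each of the 12 libraries, blue for the label WT and red for the label cKO, with linear axes from 0. Fibroblast markers were lowest in the P1 WT libraries (406 to 419 CPM) and highest in the P8 WT libraries (26288 to 26415 CPM); at P8 the microglia list was higher and the astrocyte list lower in the cKO libraries.

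Divided by the length of the exons in the GENCODE vM21 annotation of GRCm38, Ccnd1 was the most abundant member, with a mean of 365 CPM per kilobase over all libraries, rank 78 of 17902 genes. Ccnd2 followed with 179 CPM per kilobase (rank 172) and Cdkn1a with 169 (rank 181). The other members had between 8.73 CPM per kilobase (Cdkn2c, rank 5670) and 40.5 (Mdm2, rank 1135). Cyclin D1, cyclin D2 and p21 transcripts were thus in the top 1.01% of genes, and the INK4 inhibitors lay below them.

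The start of a gene shows what sequence its promoter offers, and 8 of the members had 12 start windows in RefSeq (GRCm38.p6); Ccnd1 and Ccnd2 had none in the table. The 250 bases before the start are printed for the 3 members with a p53 half-site there, Cdkn1a, Mdm2 and Trp53, in capitals, and for Cdkn2b, where the capitals mark a cAMP response element:
Cdkn1a (chr17:29090729-29090978, + strand): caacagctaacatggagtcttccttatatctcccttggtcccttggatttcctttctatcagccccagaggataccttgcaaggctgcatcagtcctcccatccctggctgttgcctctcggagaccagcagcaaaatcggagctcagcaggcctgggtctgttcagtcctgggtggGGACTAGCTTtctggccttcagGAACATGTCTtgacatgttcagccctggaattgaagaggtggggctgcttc
Mdm2 (chr10:117710759-117711008, - strand): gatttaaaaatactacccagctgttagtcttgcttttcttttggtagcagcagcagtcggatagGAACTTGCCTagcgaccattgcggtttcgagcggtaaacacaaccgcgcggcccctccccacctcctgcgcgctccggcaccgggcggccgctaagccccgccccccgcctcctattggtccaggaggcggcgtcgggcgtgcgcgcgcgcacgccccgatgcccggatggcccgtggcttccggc
Trp53 (chr11:69580109-69580358, + strand): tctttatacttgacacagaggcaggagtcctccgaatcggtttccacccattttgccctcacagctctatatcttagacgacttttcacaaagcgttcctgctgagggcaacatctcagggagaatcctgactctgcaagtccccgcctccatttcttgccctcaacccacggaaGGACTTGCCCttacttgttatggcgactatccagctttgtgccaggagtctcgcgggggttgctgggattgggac
Cdkn2b (chr4:89311033-89311282, - strand): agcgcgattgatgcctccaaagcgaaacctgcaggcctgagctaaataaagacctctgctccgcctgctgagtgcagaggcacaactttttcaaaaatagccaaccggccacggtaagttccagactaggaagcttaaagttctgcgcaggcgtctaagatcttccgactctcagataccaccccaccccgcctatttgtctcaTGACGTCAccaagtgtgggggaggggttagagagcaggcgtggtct

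The printed window of Cdkn1a holds 2 half-sites, which begin 73 and 51 bases before the start. Its other window, chr17:29093519-29093768, holds none. The window of Mdm2 holds 1 at 186 bases and that of Trp53 1 at 75 bases. Such a half-site was found on either strand in 7.13% of the 32851 windows of the whole table. The response element of Cdkn2b, TGACGTCA, begins 46 bases before the start and was found in 1.55% of all windows. The letters GGGCGG, the core of an SP1 box, were present on either strand in 7 of the 12 windows of members and in 32.7% of all windows. CACGTG (an E-box), CTTTGAT (TCF/LEF), TGANTCA (AP-1) and TTTCGCGC (E2F) were in none of the 12 windows, against 6.02%, 3.21%, 6.75% and 0.256% of all windows. These matches describe the letters of these windows only.

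The first question was how the members differed between the libraries labelled cKO and WT at each age. At P1 4 of 10 passed an adjusted p under 0.05 in edgeR's quasi-likelihood test (9.48% of all genes tested did, 6.54% upwards and 2.94% downwards), with Cdkn2a and Ccnd1 higher and Cdkn2c and Trp53 lower in the cKO libraries. At P6 5 of 10 passed (25.7% of all genes, 13.2% upwards and 12.5% downwards), with Ccnd1 and Ccnd2 higher and Cdkn2b, Cdkn2c and Mdm2 lower. At P8 7 of 10 passed (34.4% of all genes, 19.6% upwards and 14.8% downwards), with Ccnd1, Ccnd2, Cdkn1a and Mdm2 higher and Cdkn1b, Cdkn2b and Cdkn2c lower. The largest difference was that of Ccnd1, 2.08-fold at P6 and 2.90-fold at P8. With the study's rule, an unadjusted p under 0.05 and a change of at least 1.5-fold, the counts were 1, 2 and 4 (8.86%, 16.9% and 22.4% of all genes). Of the calls past the adjusted p, some at P1 and P8 were lost when 1 library of that age was left out. The 4 members called at P1 kept their sign with any 1 library left out. There the log2 difference ranged from 0.66 to 1.26 for Cdkn2a and from -0.41 to -0.38 for Cdkn2c. It ranged from 0.088 to 0.12 for Ccnd1 and from -0.33 to -0.22 for Trp53.

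**Figure D2:**
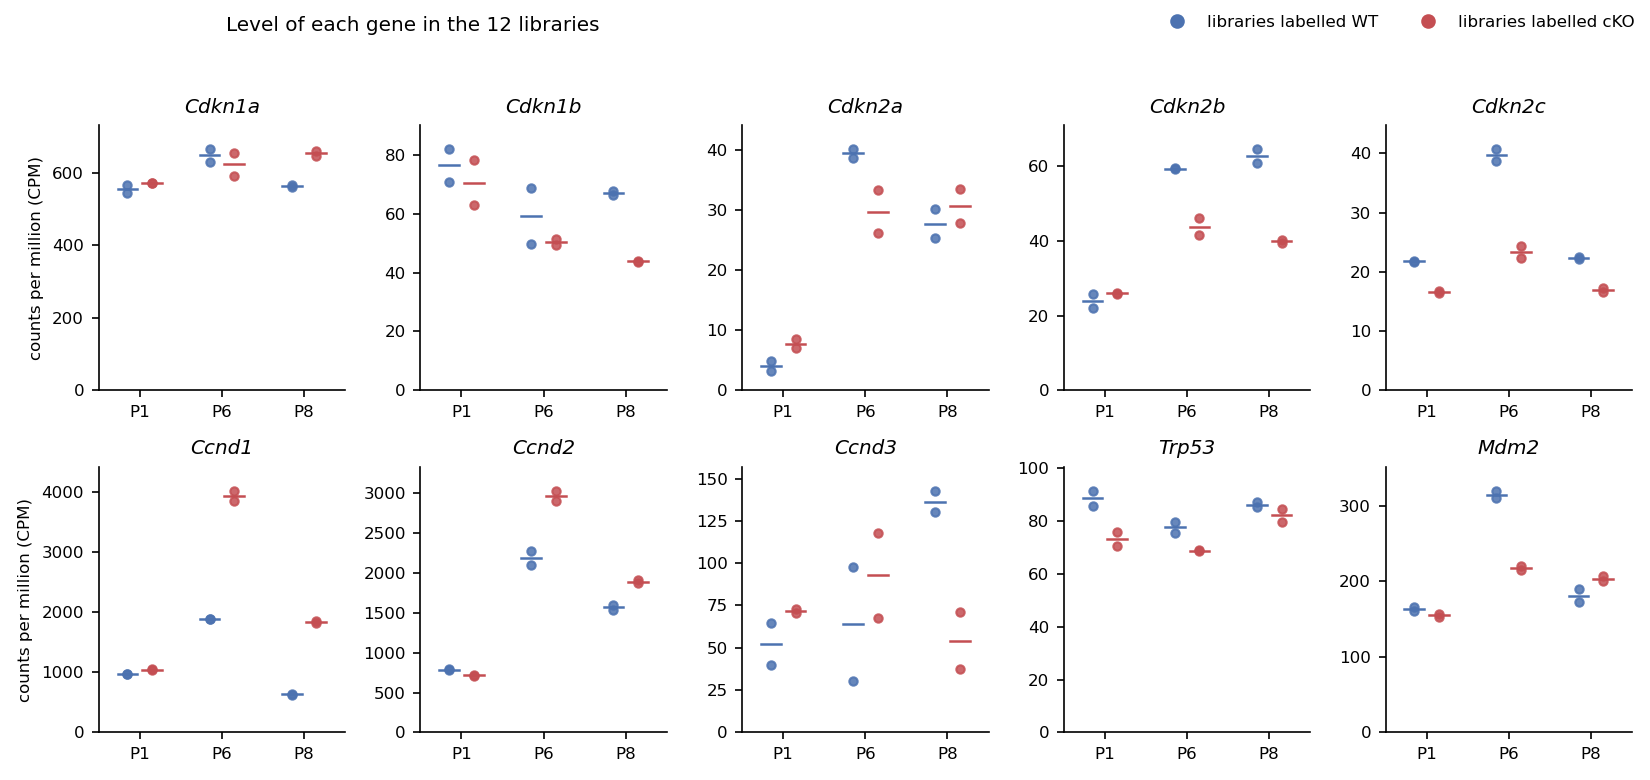
CPM of the 10 genes in each of the 12 libraries, 1 panel per gene, by age of the brain, blue for the label WT and red for the label cKO; points are libraries, bars the mean of 2, and axes are linear from 0. Ccnd1 at P6 stood at 3853 and 4018 CPM in the cKO libraries and at 1888 and 1892 in the WT libraries, while the libraries of 1 group were furthest apart for Ccnd3.

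**Figure D3:**
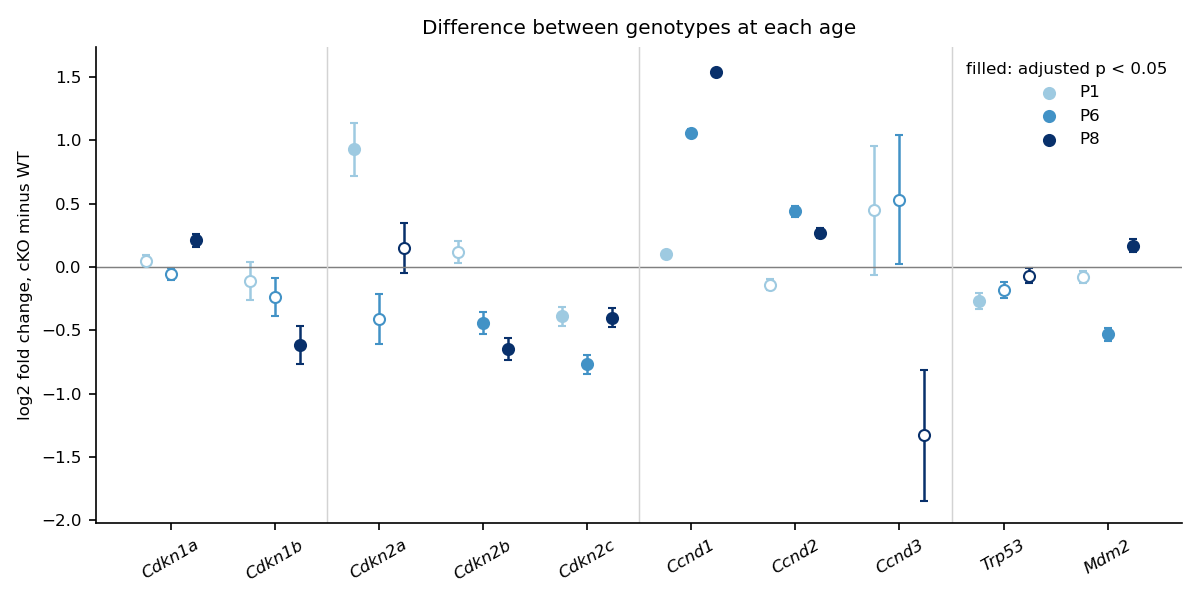
Log2 fold change of cKO minus WT for each gene at P1, P6 and P8, with bars of 1 standard error and filled points where the adjusted p was under 0.05. Ccnd1 lay at 1.06 and 1.54 at P6 and P8, Cdkn2c below 0 at all 3 ages, and Mdm2 below 0 at P6 and above 0 at P8.

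Cdkn1a (chr17:29090976-29100727, + strand) encodes p21, the CIP/KIP inhibitor that p53 induces. At P1 the WT libraries had 543 and 565 CPM and the cKO libraries 571 and 572. At P6 they had 630.0 and 665 against 654 and 591, and at P8 567 and 561 against 661 and 645. The groups overlapped at P6, and at P8 both cKO libraries were above both WT libraries. The log2 difference at P8 was 0.21 (SE 0.049, adjusted p = 0.00876 in edgeR), a ratio of 1.16, against 0.046 (SE 0.049, adjusted p = 0.681) at P1 and -0.056 (SE 0.049, adjusted p = 0.467) at P6. The P8 call was lost without P8 WT replicate 2 (adjusted p = 0.0511 in edgeR) or P8 cKO replicate 1 (0.0583). Over all 12 libraries the level kept between 543 and 665 CPM, relative to its level the narrowest range of the 5 inhibitors.

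Cdkn1b (chr6:134920401-134925513, + strand) encodes p27, which holds back cyclin E with CDK2 and falls when cells are driven to divide. Its levels at P1 were 81.9 and 70.8 CPM in the WT and 78.3 and 62.8 in the cKO libraries, which overlapped. At P6 the values were 68.8 and 49.8 against 51.3 and 49.4, and at P8 67.8 and 66.3 against 43.9 and 43.7. At P8 the cKO libraries were thus the lowest of all 12, and there Cdkn1b fell by 0.62 on the log2 scale (SE 0.15, adjusted p = 0.0114 in edgeR). The difference at P6, -0.24 (SE 0.15, adjusted p = 0.307), rested on WT replicate 1, without which it was 0.017, while without WT replicate 2 it passed at -0.46 (adjusted p = 0.043 in edgeR). The P8 call was lost without P8 WT replicate 1 (adjusted p = 0.0526), P8 cKO replicate 1 (0.0566) or P8 cKO replicate 2 (0.0588). The ratio of Cdkn1a to Cdkn1b per kilobase was 10.7 and 10.8 in the P8 WT libraries and 19.3 and 18.9 in the P8 cKO libraries.

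Cdkn2a (chr4:89274471-89294653, - strand) encodes p16Ink4a and p19Arf from different first exons. The 2 annotated coding transcripts share 575 bases, 67.5% of the p16Ink4a transcript and 64.2% of the p19Arf transcript, so the counts per gene do not separate them. At P1 it had 293 and 263 counts (4.91 and 3.23 CPM) in the WT libraries and 499 and 398 counts (8.48 and 6.99 CPM) in the cKO libraries, a mean of 3.47 and 6.60 CPM per kilobase. At P6 the levels were 38.7 and 40.1 CPM in the WT and 33.3 and 26.1 in the cKO libraries, and at P8 30.2 and 25.3 against 33.5 and 27.8. Both cKO libraries were above both WT libraries at P1 and below them at P6, and they overlapped at P8. The log2 difference was 0.93 (SE 0.21, adjusted p = 0.0258 in edgeR) at P1, -0.41 (SE 0.20, adjusted p = 0.183) at P6 and 0.15 (SE 0.20, adjusted p = 0.636) at P8. At P6 the difference passed with DESeq2 on those libraries alone (adjusted p = 0.0403). The P1 call was lost when edgeR was run on the P1 libraries alone (adjusted p = 0.116), or without P1 WT replicate 2 (0.134) or P1 cKO replicate 1 (0.137). The fibroblast markers stood higher in the cKO libraries at P1 and lower at P6 and P8. Their order between labels thus matched that of Cdkn2a at P1 and P6 and not at P8, where Cdkn2a overlapped. Between ages they did not always move with Cdkn2a. Both rose from P1 to P6 in the WT libraries. In the cKO libraries the marker sums were 2489 to 2519.5 CPM at P1 and 2524 to 2697 at P6, while Cdkn2a rose 3.84-fold. From P6 to P8 the sums rose in both labels, and Cdkn2a passed in neither.

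Cdkn2b (chr4:89306299-89311039, - strand), the neighbour of Cdkn2a, encodes p15Ink4b, an inhibitor that TGF-beta induces. The longest run of bases it shares exactly with a Cdkn2a transcript is 23. The P1 levels overlapped, at 22.0 and 25.8 CPM in the WT and 26.2 and 25.8 in the cKO libraries. At P6 they were 59.4 and 59.2 against 46.0 and 41.5, and at P8 64.5 and 60.8 against 40.3 and 39.5. At both later ages the cKO libraries were below the WT libraries. Cdkn2b fell by 0.44 at P6 (log2, SE 0.086, adjusted p = 0.00489 in edgeR) and by 0.65 at P8 (SE 0.086, adjusted p = 3.18e-04), after 0.12 (SE 0.086, adjusted p = 0.497) at P1. The P8 difference was a ratio of 0.637. The fibroblast markers were lower in the cKO libraries at both later ages, and at P1, where Cdkn2b overlapped, all 8 rose.

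Cdkn2c (chr4:109660876-109667189, - strand) encodes p18Ink4c, which is expressed in dividing progenitors. Its levels were 21.9 and 21.7 CPM in the WT and 16.8 and 16.4 in the cKO libraries at P1. At P6 they were 40.7 and 38.7 against 22.4 and 24.3, and at P8 22.1 and 22.5 against 17.2 and 16.6. It was the only member lower in both cKO libraries than in both WT libraries and past the threshold at all 3 ages. It fell by 0.39 at P1 (log2, SE 0.074, adjusted p = 0.0103 in edgeR), by 0.77 at P6 (SE 0.074, adjusted p = 6.73e-05) and by 0.40 at P8 (SE 0.074, adjusted p = 0.00251). The P1 call was lost when edgeR was run on the P1 libraries alone (adjusted p = 0.0742), and without P1 WT replicate 1 (0.0567), P1 WT replicate 2 (0.0512) or P1 cKO replicate 2 (0.0627). Averaged over the ages Cdkn2c fell by 0.52 on the log2 scale in the cKO libraries (SE 0.043, adjusted p = 1.69e-05).

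Ccnd1 (chr7:144929931-144939925, - strand) encodes cyclin D1, the D cyclin that mitogens and Wnt signalling raise. At P1 the libraries labelled WT had 971 and 978 CPM and those labelled cKO 1056 and 1036. At P6 the levels were 1892 and 1888 against 4018 and 3853, and at P8 629 and 636 against 1848 and 1823. The cKO libraries were above the WT libraries at each age, by a margin that was small at P1 and many times the spread within groups at P6 and P8. The log2 difference was 0.10 (SE 0.027, adjusted p = 0.0494 in edgeR) at P1, 1.06 (SE 0.028, adjusted p = 1.84e-08) at P6 and 1.54 (SE 0.028, adjusted p = 2.04e-09) at P8. The P1 call was lost with DESeq2 on all libraries (adjusted p = 0.0816) and without any 1 of 10 of the 12 libraries, with an adjusted p in edgeR of 0.0534 (without P6 WT replicate 2) to 0.227 (without P1 cKO replicate 1); it remained without either of the P6 cKO libraries. Replicates of Ccnd1 were close, with a coefficient of biological variation of 0.0479 against 0.178 for all genes. LTO1, which overlaps it on the other strand and is listed as Oraov1, had 7.12 to 10.7 CPM in all libraries.

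Ccnd2 (chr6:127125162-127152193, - strand) encodes cyclin D2, the D cyclin of neural progenitors. At P1 it had 781 and 796 CPM in the WT and 714 and 719 in the cKO libraries, at P6 2269.7 and 2096 against 2901 and 3027, and at P8 1533 and 1601 against 1910.5 and 1869.6. The groups did not overlap at any age, with the cKO libraries below the WT libraries at P1 and above them at P6 and P8. The difference was -0.14 at P1 (log2, SE 0.042, adjusted p = 0.0757 in edgeR), 0.44 at P6 (SE 0.042, adjusted p = 5.97e-05) and 0.27 at P8 (SE 0.042, adjusted p = 8.26e-04). At P1 the difference passed when edgeR or DESeq2 was run on the P1 libraries alone (adjusted p = 0.0271 and 0.00156), and without P6 WT replicate 1 (0.0319) or P6 WT replicate 2 (0.0336). Neural stem cell markers, 7 of which were in the table, summed to 3772 to 4016 CPM in the P1 cKO libraries and 3466 to 3502 in the P1 WT libraries, where Ccnd2 had the opposite order. At P6 the sums were 6229 to 6379 in cKO and 3540 to 3713 in WT libraries, and at P8 2780.4 to 2791 and 1347 to 1352. Of the 7, 2 rose at P1, 4 at P6 and 4 at P8, where Prom1 fell.

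Ccnd3 (chr17:47505051-47599691, + strand), cyclin D3, was the member with the widest spread between replicates. At P1 it had 64.7 and 40.1 CPM in the WT and 72.6 and 70.3 in the cKO libraries, at P6 97.9 and 30.6 against 118 and 67.7, and at P8 143 and 130.1 against 71.3 and 37.3. At P8 both WT libraries were the highest of all 12. The log2 difference there was -1.33 (SE 0.52, adjusted p = 0.0791 in edgeR), which did not pass, and it passed with edgeR or DESeq2 on the P8 libraries alone (adjusted p = 0.0283 and 0.0106) and without P6 WT replicate 1 (0.0225) or P6 WT replicate 2 (0.0222). The differences at P1 and P6 were 0.45 and 0.53 (SE 0.51, adjusted p = 0.704 and 0.517 in edgeR), and at P6 it was 1.60 without WT replicate 1 (adjusted p = 0.0482) and -0.085 without WT replicate 2. Its coefficient of biological variation was 0.352, in the 85.6th percentile of dispersion of the genes tested. Bysl, which overlaps it on the other strand, had 24.6 to 30.3 CPM in all libraries.

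The composition of the D cyclins followed from these levels. Per kilobase of exon, Ccnd1 made up 69.5% and 70.0% of the D cyclin transcripts in the P1 WT libraries and 72.7% and 72.3% in the cKO libraries. At P6 it was 61.4% and 63.9% against 72.6% and 71.3%. At P8 the share was 42.7% and 42.2% in the WT libraries, where Ccnd2 led with 52.1% and 53.2%, and 65.0% and 65.6% in the cKO libraries. Ccnd3 supplied between 0.556% and 5.19% of the D cyclin transcripts of a library. Which cyclin led depended on the division by length, since in counts Ccnd2 also led in the P6 WT and P8 cKO libraries. The D cyclins together amounted to 654 and 627 CPM per kilobase in the P6 WT libraries against 1175 and 1148 in the P6 cKO libraries, and to 313 and 320.0 against 604 and 590.2 at P8. Set over the sum of the 5 inhibitors, that was a ratio of 2.31 and 2.17 against 4.43 and 4.81 at P6, and of 1.23 and 1.30 against 2.32 and 2.37 at P8. At P1 the ratio was 1.49 and 1.46 in the WT and 1.47 and 1.48 in the cKO libraries. These sums of RNA say nothing of the proteins, and they carry no test of their own.

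**Figure D4:**
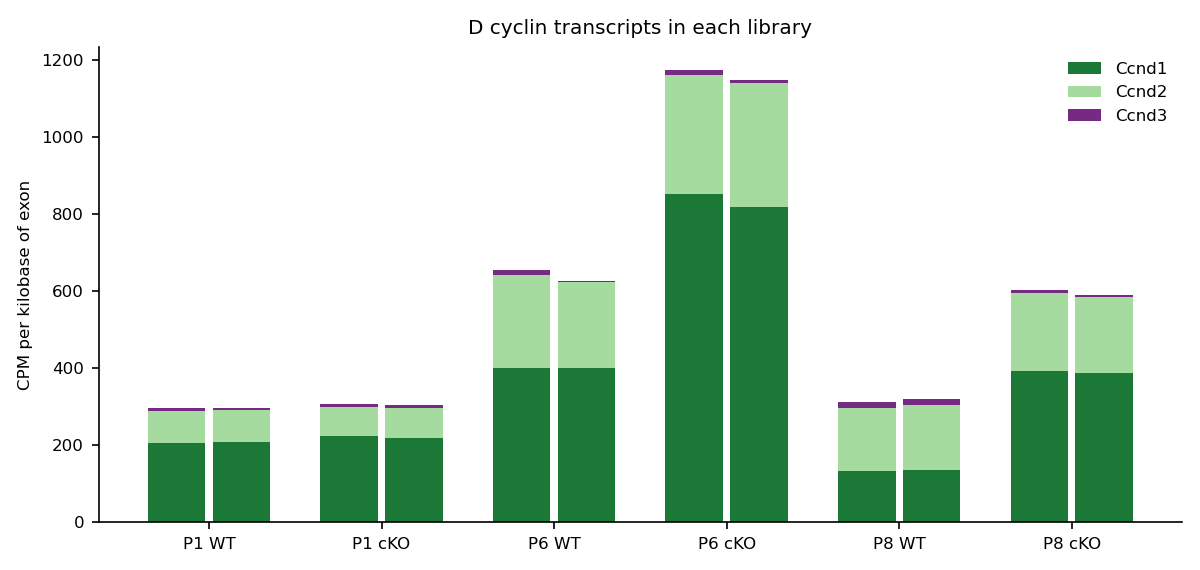
Stacked CPM per kilobase of exon of Ccnd1, Ccnd2 and Ccnd3 in each of the 12 libraries, 1 bar per library, from 0. In the P8 WT libraries Ccnd2 took the larger share (52.1% and 53.2%), and in the other groups Ccnd1 did, with 61.4% to 72.7%. Without division by length Ccnd2 also led in the P6 WT and P8 cKO libraries.

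Trp53 (chr11:69580359-69591873, + strand) encodes p53, whose activity is set mainly by the stability of the protein. It had 85.7 and 91.2 CPM in the WT and 75.8 and 70.6 in the cKO libraries at P1. At P6 it had 79.7 and 75.5 against 68.9 and 68.4, and at P8 86.9 and 85.1 against 84.3 and 79.7. At each age both cKO libraries were below both WT libraries, by little. The difference was -0.27 at P1 (log2, SE 0.061, adjusted p = 0.0224 in edgeR), -0.18 at P6 (SE 0.061, adjusted p = 0.0632) and -0.069 at P8 (SE 0.061, adjusted p = 0.434). The P1 call was lost with edgeR on the P1 libraries alone (adjusted p = 0.0825), and without P1 WT replicate 2 (0.138) or P1 cKO replicate 2 (0.139). Averaged over the ages it was -0.17 (SE 0.035, adjusted p = 0.00471).

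Mdm2 (chr10:117688875-117710758, - strand) encodes the ubiquitin ligase that degrades p53 and is itself a p53 target. It had 161 and 166 CPM in the WT and 157 and 153 in the cKO libraries at P1. At P6 it had 309.8 and 319 against 220.1 and 215, and at P8 172 and 189 against 200.0 and 207. The cKO libraries were below the WT libraries at P1 and P6 and above them at P8. Mdm2 fell by 0.53 at P6 (log2, SE 0.051, adjusted p = 6.44e-05 in edgeR) and was higher by 0.17 at P8 (SE 0.051, adjusted p = 0.028), with -0.079 at P1 (SE 0.051, adjusted p = 0.434). The P8 call was lost when the P8 libraries were fitted alone (adjusted p = 0.0947 in edgeR and 0.0596 in DESeq2), and without P8 WT replicate 1 (0.192), P8 cKO replicate 1 (0.0636) or P8 cKO replicate 2 (0.151). Cdkn1a, the other member with half-sites that p53 is known to induce, had -0.056 at P6, and the difference between the genes was not tested.

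The second question was whether the difference between labels changed from age to age, which the interaction terms of the same fit test. Between P1 and P6 it changed in 6 of the 10 members (15.3% of all genes). Ccnd1 gained 0.96 (log2, SE 0.039, adjusted p = 3.30e-07 in edgeR) and Ccnd2 0.58 (SE 0.059, adjusted p = 1.68e-04), while Cdkn2a went by -1.34 (SE 0.29, adjusted p = 0.0142), Cdkn2b by -0.56 (SE 0.12, adjusted p = 0.0141), Mdm2 by -0.45 (SE 0.072, adjusted p = 0.00253) and Cdkn2c by -0.37 (SE 0.10, adjusted p = 0.0417). Thus between those ages the D cyclins that passed moved up and the INK4 genes that passed moved down in the cKO libraries relative to the WT libraries. Between P6 and P8 4 of 10 changed (21.5% of all genes), all upwards (12.6% of all genes), with 0.70 for Mdm2 (SE 0.072, adjusted p = 1.29e-04), 0.48 for Ccnd1 (SE 0.039, adjusted p = 3.04e-05), 0.37 for Cdkn2c (SE 0.10, adjusted p = 0.0337) and 0.27 for Cdkn1a (SE 0.07, adjusted p = 0.0233). From P1 to P8 4 of 10 changed (25.7% of all genes), Ccnd1 by 1.43 (SE 0.039, adjusted p = 2.18e-08), Ccnd2 by 0.41 (SE 0.059, adjusted p = 7.61e-04), Mdm2 by 0.25 (SE 0.072, adjusted p = 0.0312) and Cdkn2b by -0.77 (SE 0.12, adjusted p = 0.00137). Of the members that did not pass, Cdkn1a, Cdkn1b, Trp53 and Ccnd3 had interactions of -0.10, -0.12, 0.097 and 0.081 between P1 and P6. Between P6 and P8 Cdkn1b, Cdkn2a, Cdkn2b, Ccnd2, Ccnd3 and Trp53 had -0.38, 0.55, -0.21, -0.17, -1.86 and 0.11. Between P1 and P8 Cdkn1a, Cdkn1b, Cdkn2a, Cdkn2c, Ccnd3 and Trp53 had 0.17, -0.50, -0.79, -0.0048, -1.78 and 0.20, and Cdkn1a, Cdkn1b, Cdkn2a and Ccnd3 passed there when DESeq2 was run on the compared groups alone (adjusted p = 0.00334, 0.00121, 0.0087 and 0.00599). Averaged over the ages 7 of 10 differed between labels (31.3% of all genes), with 0.90 for Ccnd1 (SE 0.016, adjusted p = 2.20e-09), 0.19 for Ccnd2, -0.32 for Cdkn1b, -0.32 for Cdkn2b, -0.52 for Cdkn2c, -0.17 for Trp53 and -0.15 for Mdm2, while Cdkn1a, Cdkn2a and Ccnd3 did not pass with 0.067, 0.22 and -0.12. Of the 4 calls between P6 and P8, 2 remained without P6 WT replicate 2 or any of the 4 P8 libraries. The calls of the smaller terms were easily lost, though these terms kept their sign. That of Cdkn2c between P1 and P6 was lost without any 1 of 11 of the 12 libraries, and ranged from -0.43 to -0.32. Between P6 and P8 it was lost without any 1 of 7 (0.31 to 0.43), and that of Cdkn1a without any 1 of 5 (0.20 to 0.34). That of Mdm2 between P1 and P8 was lost without any 1 of 6 (0.18 to 0.32). The average of Cdkn1b was lost without P1 WT replicate 1 (adjusted p = 0.0545 in edgeR).

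The third question was how the members moved with the age of the brain within each label. From P1 to P6 8 of 10 changed in the WT libraries (39.9% of all genes), 7 of them upwards (20.7% of all genes), and 7 of 10 in the cKO libraries (38.5% of all genes), 6 of them upwards (19.7% of all genes). Cdkn2a rose 9.72-fold in the WT libraries (log2 3.28, SE 0.22, adjusted p = 3.18e-06 in edgeR) and 3.84-fold in the cKO libraries (log2 1.94, SE 0.21, adjusted p = 8.95e-05). Cdkn2b rose 2.48-fold and 1.68-fold, Cdkn2c 1.82-fold and 1.41-fold, and Mdm2 1.92-fold and 1.40-fold, in WT and in cKO libraries. Among the cyclins the order was turned, with Ccnd1 up 1.94-fold in WT and 3.76-fold in cKO libraries and Ccnd2 up 2.77-fold and 4.14-fold. Trp53 fell by 0.19 on the log2 scale in the WT libraries (SE 0.061, adjusted p = 0.0334), and Cdkn1b by 0.49 in the cKO libraries (SE 0.15, adjusted p = 0.0301). Cdkn1a rose by 0.23 in the WT libraries (SE 0.049, adjusted p = 0.00541) and had 0.12 in the cKO libraries (adjusted p = 0.0781). Ccnd3 passed in neither label, with 0.30 and 0.38, nor did Cdkn1b in WT (-0.37) or Trp53 in cKO libraries (-0.092).

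From P6 to P8 5 of 10 members changed in the WT libraries (35.3% of all genes), all downwards (19% of all genes). Ccnd1 dropped to 0.335 of its P6 level in the WT libraries (log2 -1.58, SE 0.028, adjusted p = 4.05e-09 in edgeR) and to 0.466 in the cKO libraries (log2 -1.10, SE 0.028, adjusted p = 8.72e-09). Ccnd2 dropped to 0.718 and 0.638, and Cdkn2c to 0.561 and 0.724. Mdm2 fell by 0.80 on the log2 scale in the WT libraries (SE 0.051, adjusted p = 3.05e-06), where Cdkn1a fell by 0.20, and had -0.097 in the cKO libraries (adjusted p = 0.171). In the cKO libraries 4 of 10 changed (39.1% of all genes), and Trp53 alone rose, by 0.26 (SE 0.061, adjusted p = 0.00824). Cdkn2a and Cdkn2b passed in neither label at this step, with log2 values of -0.51 and 0.079 in WT and 0.046 and -0.13 in cKO libraries, while each was above its P1 level at P8 in both labels. The WT value of Cdkn2a depended on the test, since its adjusted p was 0.0828 in edgeR on all libraries, 0.0422 in DESeq2 on all libraries, 0.0228 and 6.04e-04 in edgeR and DESeq2 on the compared groups alone, and 0.04 without either of the P1 WT libraries. Cdkn1b, Ccnd3 and Trp53 had 0.18, 1.09 and 0.15 in the WT libraries and Cdkn1a, Cdkn1b and Ccnd3 0.069, -0.20 and -0.77 in the cKO libraries, none of which passed.

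From P1 to P8 5 of 10 members changed in the WT libraries (47% of all genes) and 7 of 10 in the cKO libraries (35.6% of all genes). Ccnd1 ended lower than at P1 in the WT libraries, at a ratio of 0.649 (log2 -0.62, SE 0.027, adjusted p = 1.13e-07 in edgeR), and higher in the cKO libraries, at 1.76 (log2 0.81, SE 0.027, adjusted p = 7.14e-08). Cdkn2a was 6.84-fold and 3.96-fold higher at P8 than at P1, Cdkn2b 2.62-fold and 1.53-fold, and Ccnd2 1.99-fold and 2.64-fold. Cdkn2c did not pass, with 0.032 in WT and 0.027 in cKO libraries (log2, SE 0.074). Cdkn1b fell by 0.69 in the cKO libraries (SE 0.15, adjusted p = 0.00652), where Cdkn1a rose by 0.19 (SE 0.049, adjusted p = 0.014). In the WT libraries Cdkn1a, Cdkn1b and Trp53 had 0.026, -0.19 and -0.04, and in the cKO libraries Ccnd3 and Trp53 had -0.40 and 0.16, none of which passed. Ccnd3 had 1.38 in the WT libraries (SE 0.52, adjusted p = 0.0545 in edgeR), and it passed with DESeq2 on all libraries (0.0406), with edgeR or DESeq2 on the compared groups alone (0.00791 and 1.65e-04) and without P6 WT replicate 1 (0.014) or P6 WT replicate 2 (0.0139). Some of these steps lost their call when 1 library was left out, with their direction kept. Mdm2 passed from P1 to P8 in the WT libraries with 0.14 (SE 0.051, adjusted p = 0.0448 in edgeR), a call that was lost without any 1 of 11 of the 12 libraries, and it rose by 0.39 in the cKO libraries (SE 0.051, adjusted p = 2.91e-04). Without P1 WT replicate 2 or P6 WT replicate 2 the fall of Trp53 from P1 to P6 did not pass (adjusted p = 0.19 and 0.17 in edgeR), nor did that of Cdkn1a from P6 to P8 in the WT libraries without P6 WT replicate 2 or P8 WT replicate 2 (0.071 and 0.066). The fall of Cdkn1b from P1 to P6 in the cKO libraries was lost without P1 cKO replicate 1 (0.189), P6 cKO replicate 1 (0.0872) or P6 cKO replicate 2 (0.116), and that from P1 to P8 without P1 cKO replicate 1 (0.0503). The rise of Trp53 from P6 to P8 was lost without P8 cKO replicate 1 (0.0656), and that of Cdkn1a from P1 to P8 without P1 cKO replicate 1 (0.0619), P1 cKO replicate 2 (0.0598) or P8 cKO replicate 1 (0.0823). The steps of a label share their libraries with each other and with the genotype comparisons.

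The order of the 6 groups differed between members. Ccnd1 ran from the P8 WT over the P1 WT, P1 cKO, P8 cKO and P6 WT to the P6 cKO libraries, and no neighbours in that order overlapped. Ccnd2 ran from P1 cKO over P1 WT, P8 WT, P8 cKO and P6 WT to P6 cKO, and Mdm2 from P1 cKO over P1 WT, P8 WT, P8 cKO and P6 cKO to P6 WT, again with no overlap of neighbours. For Cdkn2b only the P1 groups overlapped. Cdkn2a and Cdkn2c had 2 pairs of neighbours that overlapped, Trp53 2, Cdkn1a 3, and Cdkn1b and Ccnd3 4 of 5. The groups labelled cKO and WT did not overlap in 8 of 10 members at P1, 7 at P6 and 9 at P8, where 51.2%, 59% and 70.8% of all genes did not.

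The genes around the members were examined as lists, without a test of a list as a whole. For each list the largest rise and fall at each age are named. Skp2, Cdk4, Ets1, Plk2, Ccng1, Zmat3, Btg2 and the P6 value of Mdm4 were added after their values had been seen. So were the genes of replication and mitosis that passed at P8 and the other INK4 locus regulators that passed. The shares of all genes tested that rose and fell were 6.54% and 2.94% at P1. They were 13.2% and 12.5% for P6, with 19.6% and 14.8% for P8. Of 27 cyclin, CDK, RB and E2F genes, none rose and 3 fell at P1 in the cKO libraries, 3 rose and 11 fell at P6, and 5 rose and 1 fell at P8, with median log2 differences of -0.012, -0.22 and 0.073. The medians of all genes tested were 0, 0 and 0.012 at these ages. Cdk6, the kinase partner of D cyclins, was at 142 CPM in the P8 cKO and 63.8 in the P8 WT libraries (log2 1.16, SE 0.076, adjusted p = 3.41e-06 in edgeR). Mycn, a transcription factor of dividing progenitors, was at 1.66 CPM in the P6 cKO and 7.11 in the P6 WT libraries (log2 -2.10, SE 0.26, adjusted p = 3.60e-04), Skp2, which takes p27 to degradation, fell by 0.74 at P6 (SE 0.18, adjusted p = 0.015), and Cdk4 by 0.55 (SE 0.11, adjusted p = 0.00611). E2f6 was the largest rise at P6, 0.54 (SE 0.09, adjusted p = 0.00186), and Cdc25a the largest fall at P1, -0.41 (SE 0.08, adjusted p = 0.0117). The largest fall at P8 was that of Cks1b, a CDK subunit, -0.29 (SE 0.085, adjusted p = 0.0276). Of the 2 remaining CDK inhibitors, Cdkn1c, which encodes p57, had 0.905 CPM in the P8 cKO and 5.83 in the P8 WT libraries (log2 -2.68, SE 0.34, adjusted p = 2.60e-04), and Cdkn2d did not pass at any age.

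Many genes of S phase and mitosis were lower at P6 in the cKO libraries. Of 24, none rose and 16 fell at P6 in the cKO libraries, where Ccnd1 was 2.08-fold higher, with a median of -0.35, against 13.2% and 12.5% of all genes. The largest fall was that of Aurkb, a mitotic kinase, at 9.41 CPM in the cKO and 17.9 in the WT libraries (log2 -0.93, SE 0.14, adjusted p = 0.00108 in edgeR). At P1 none rose and 3 fell, led by the proliferation marker Mki67 with -0.45 (SE 0.072, adjusted p = 0.00433). At P8 7 rose and 4 fell, against 19.6% and 14.8% of all genes, with a median of 0.085. There the 7 were genes of replication, Cdc6, Mcm2, Mcm3, Mcm5, Mcm6, Mcm7 and Pcna, the last at 141 CPM against 82.4 (log2 0.77, SE 0.063, adjusted p = 1.43e-05), and the 4 that fell were genes of G2 and mitosis, Ccnb1, Cdc20, Cenpf and Top2a, with Ccnb1 at -0.59 (SE 0.11, adjusted p = 0.00256).

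Of 20 regulators of the INK4 locus, 4 rose and none fell at P1, 4 rose and 1 fell at P6, and 5 rose and 5 fell at P8, with medians of 0.055, -0.035 and -0.04. Over all genes 6.54% rose and 2.94% fell at P1, 13.2% and 12.5% did so at P6, and 19.6% and 14.8% at P8. Whether the list differed from the genes as a whole was not tested at any age. Ets1, a factor known to activate the p16Ink4a promoter, rose at all 3 ages, by 0.52, 0.57 and 0.71 on the log2 scale (adjusted p = 0.0115, 0.00255 and 4.85e-04 in edgeR), and Ets2 at P8 by 1.02 (SE 0.073, adjusted p = 5.82e-06). Hmga2, which is known to hold the locus down in fetal neural stem cells, rose at P1 by 0.99 (SE 0.092, adjusted p = 1.81e-04). The Polycomb subunit Cbx7, a repressor of the locus, rose at P6 by 0.91 (SE 0.11, adjusted p = 2.43e-04) and Rnf2 fell by 0.40 (SE 0.065, adjusted p = 0.00156). Id3 was the largest fall at P8, -0.66 (SE 0.061, adjusted p = 2.95e-05). Hmga2, Cbx7 and Jund rose at P8 as well, and Ezh2, Foxo1, Jdp2 and Kdm6b fell. The remaining regulators that passed were Foxo1 and Kdm6b, which rose at P1, and Id1 and Smad3, which rose at P6.

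Of 14 regulators of p53 in the table none passed at P1, 2 rose and 5 fell at P6, and 1 rose and 4 fell at P8, with medians of -0.049, -0.0013 and -0.052. Mdm4, the partner of MDM2 that blocks p53, rose by 0.35 at P6 (adjusted p = 2.63e-04 in edgeR) and fell at P8, from 188 CPM in the WT to 137 in the cKO libraries (log2 -0.46, SE 0.041, adjusted p = 2.53e-05), the reverse of Mdm2 at both ages. Hipk2, a kinase of p53, rose by 0.45 at P6 and by 0.58 at P8 (SE 0.12 for each, adjusted p = 0.0208 and 0.00459). Rchy1, another ubiquitin ligase of p53, fell by 0.35 at P6 (SE 0.063, adjusted p = 0.00304). Of 30 targets of p53 other than the members, 5 rose and 3 fell at P1, 3 rose and 7 fell at P6, and 6 rose and 18 fell at P8, with medians of 0.076, -0.11 and -0.32. Of all genes, 19.6% rose and 14.8% fell at P8. Perp was 0.92 higher at P1 (SE 0.083, adjusted p = 1.43e-04 in edgeR) and then fell by 1.77 at P6 and 1.28 at P8 (adjusted p = 5.27e-07 and 2.50e-06). Plk2 did likewise with 0.77, -0.63 and -1.05. Fas, a death receptor, was the largest fall at P1, -0.34 (SE 0.083, adjusted p = 0.0323). Epha2, a receptor tyrosine kinase, rose at all 3 ages, by 1.34 at P6 (SE 0.073, adjusted p = 1.64e-06). At P8 the members Cdkn1a and Mdm2 were therefore higher where 18 of the 30 other targets, Ccng1, Zmat3 and Btg2 among them, were lower.

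**Figure D5:**
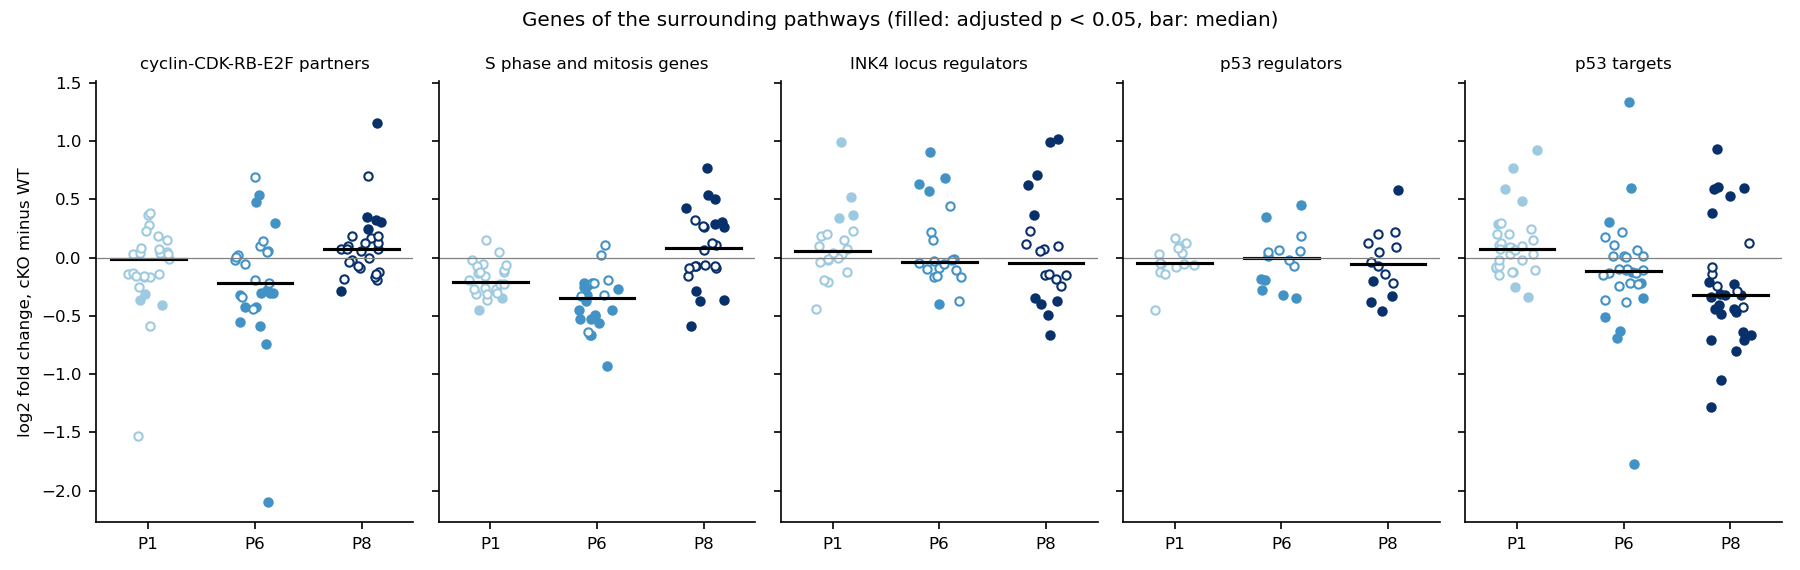
Log2 fold change of cKO minus WT of each gene on 5 pathway lists at P1, P6 and P8, filled where the adjusted p was under 0.05, with the median of each list as a bar. The genes of S phase and mitosis lay mostly below 0 at P6 (median -0.35) and the targets of p53 at P8 (median -0.32).

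For each member the genes of at least 1 CPM with the most similar log2 CPM over the 12 libraries were looked up among 15146 genes, as a description. These correlations run over 6 groups of 2 libraries, so they mostly follow the group means. For Ccnd1 they were Tuft1 (Pearson r = 0.990) and Epas1 (0.987), for Ccnd2 6330403L08Rik (0.986) and Gria3 (0.982), and for Ccnd3 A330074K22Rik (0.863) and Ablim1 (0.846). For Cdkn2a they were Fn1 (0.990), the gene of fibronectin, which fibroblasts express strongly, and Ephb6 (0.983), for Cdkn2b Rest (0.988) and Qsox1 (0.987), and for Cdkn2c C330027C09Rik (0.929) and the mitotic kinesin Kif23 (0.927). Cdkn1a was most like Zfp36 (0.950) and Ywhag (0.942), Cdkn1b like Gramd1c (0.931) and Gm17484 (0.916), Trp53 like Helb (0.936) and Slc35b4 (0.905), and Mdm2 like Itgav (0.964) and Rchy1 (0.960). Among the members themselves Cdkn2a with Ccnd2 (0.884), Cdkn2a with Cdkn2b (0.882) and Cdkn2c with Mdm2 (0.833) were closest, and Cdkn1a with Cdkn1b (-0.808) were the most opposed.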

How the data were processed

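The 12 RNA-seq libraries of cultured astrocytes fall into 6 groups of 2 by age and label. The authors deposited counts, whole numbers of reads per gene without normalization. Per their methods, Hisat2 placed the reads on GRCm38 (mm10), and ballgown and DESeq2 served for testing. The counting program, annotation and strand setting: not given in the sources used here. Reads of overlapping genes could have gone to either. The tests used edgeR 4.0.16 in R 4.3.3 (TMM, filterByExpr, 1 mean per group, quasi-likelihood test, Benjamini-Hochberg adjustment over 17938 genes, calls at an adjusted p under 0.05). Library totals were 54413504 to 89183250, and replicates differed by more than counting noise. Replicate numbers did not pair samples (correlations of deviations -0.0627 to 0.0442).

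The alternatives were DESeq2 1.42.0, its size factors, all genes without a filter, a block for the replicate number, fits on the compared groups alone, calls with a 1.5-fold cut-off, and each library left out. In simulated P8 libraries the fit recovered 30.9% of 1.5-fold, 61.8% of 2-fold and 91.2% of 4-fold changes, with 5 false calls among 17794 genes. There 68 genes were changed at each fold, a far smaller share than passed in the data.

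The members, gene lists and tests were chosen with earlier results of these data known. All members were named in every contrast, with, per pathway list and age, the largest rise and fall among genes past the adjusted p with at least 1 CPM and no overlap of the labels; for each member the 2 genes with the highest Pearson correlation were named. Log2 CPM used a prior count of 2. Marker lists also covered oligodendrocyte lineage, neurons, endothelial, mural, and ependymal and choroid plexus cells, whose summed levels ran from 108 to 193, 120.1 to 403, 23.9 to 162, 2266 to 4437 and 66.8 to 249 CPM. Of 199 list genes, 179 were in the table and the others were not analysed here. Gene positions came from GENCODE vM21 and promoter windows from RefSeq (GRCm38.p6). The genotype contrasts, interactions and steps were all taken from the same fit.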

Additional observations from a re-analysis of the deposited data

Results flagged for a closer look

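The difference between labels changed with age, by an interaction term past an adjusted p under 0.05 in edgeR, in 14 combinations of member and ages, each given as log2 change of the cKO minus WT difference. From P1 to P6 these were Ccnd1 (0.96), Ccnd2 (0.58), Cdkn2a (-1.34), Cdkn2b (-0.56), Cdkn2c (-0.37) and Mdm2 (-0.45). From P6 to P8 they were Cdkn1a (0.27), Cdkn2c (0.37), Ccnd1 (0.48) and Mdm2 (0.70), and from P1 to P8 Cdkn2b (-0.77), Ccnd1 (1.43), Ccnd2 (0.41) and Mdm2 (0.25). Both terms of Cdkn2c failed when the compared groups were fitted alone (adjusted p = 0.0981 and 0.0795 in edgeR). The term of Cdkn1a between P6 and P8 failed there as well (0.0699), as did that of Mdm2 between P1 and P8 (0.0571). In groups of 2 libraries no library can be called apart from its group by the rule used for larger groups.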

How the results depend on the processing

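The 10 members gave 130 values over the 13 contrasts. Over all alternatives 2326 recomputed values kept their direction and side of the threshold, 170 lost the call, 60 gained one and 24 turned sign. The 24 came from leaving out 1 library, all in values that had not passed, and scaling by DESeq2 size factors or dropping the filter turned none. With 2 libraries a group, 1.5-fold changes were seldom recovered in simulation, where changed genes were drawn from all those of at least 1 CPM. Only 68 genes were changed at each fold, whereas 34.4% of all genes passed between labels at P8 in the data. The adjusted p depends on how many genes change, so the recovery in the data may have been higher. The members differ in spread, from the 0.0446th percentile of dispersion (Ccnd1) to the 85.6th (Ccnd3). That recovery therefore does not describe each member. A difference that did not pass is still not shown to be absent. The cause of a changed call was not tested. The averaged difference has no fit on compared groups alone, because it uses all 6 groups.

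With the 1.5-fold cut-off on unadjusted p, the members called were 1 at P1, 2 at P6 and 4 at P8 between labels, 3 from P6 to P8 in WT, 4 from P1 to P6 and 2 from P6 to P8 in cKO, 2 and 2 for the interactions of P1 with P6 and of P6 with P8, and 1 on average. With that cut-off on adjusted p they were 1, 2 and 3 between labels, 3, 4 and 2 for the same steps, 2, 1 and 2 for the 3 interactions and 1 on average. On the compared groups alone edgeR called 2 at P1 and 2 for the interaction of P6 with P8, and DESeq2 called 8 for that of P1 with P8. Apart from the label differences on unadjusted p, the shares of all genes under these settings are not given here. The same holds for the counts with 1 library left out. Those counts therefore compare settings only, not the members with all genes.

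Leaving out 1 library gave 0 to 4 members between labels at P1, 4 to 8 at P8 and 2 to 6 for the interaction of P6 with P8. Values that turned sign ranged, for the label difference, from -0.28 to 0.036 (Cdkn1b, P1), -0.13 to 0.015 (Cdkn1a, P6), -0.46 to 0.017 (Cdkn1b, P6) and -0.085 to 1.60 (Ccnd3, P6). In WT steps they ranged from -0.77 to 0.90 (Ccnd3, P1 to P6), -0.038 to 0.43 (Cdkn1b, P6 to P8), -0.0052 to 0.055 (Cdkn1a, P1 to P8) and -0.088 to 0.0051 (Trp53, P1 to P8). In cKO steps the ranges were -0.078 to 0.72 (Ccnd3, P1 to P6), -0.0015 to 0.14 (Cdkn1a, P6 to P8) and -0.12 to 0.23 (Cdkn2a, P6 to P8). For interactions they were -0.34 to 0.13 (Cdkn1b, P1 with P6), -0.53 to 1.15 (Ccnd3, P1 with P6) and -0.032 to 0.022 (Cdkn2c, P1 with P8), and for the average -0.32 to 0.24 (Ccnd3).

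The replicate numbers did not pair the libraries, and the replicate block changed 11 of the 130 calls and no count of calls by over 1.5 times. Under the block the P1 difference of Ccnd1 was 0.10 (adjusted p = 0.0695), the interactions of Cdkn2c were -0.37 (0.0635) and 0.37 (0.0509), and Ccnd3 at P8 was -1.42 (0.0132).

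Without division by length, Ccnd1 made up 53.7% and 57.0% of D cyclin counts at P1 in WT and cKO, 45.7% and 56.3% at P6 and 27.1% and 48.6% at P8. Ccnd2 made up 43.4% and 39.1%, 52.8% and 42.4%, and 67.1% and 50.0%. Ccnd3 made up 2.89% and 3.90% at P1, 1.32% in cKO at P6 and 5.84% in WT at P8. With the 1.5-fold cut-off on adjusted p the lists held fewer calls at P1, P6 and P8: 0, 3 and 1 cyclin, CDK, RB and E2F genes, 3, 5 and 11 p53 targets, 1, 3 and 5 INK4 locus regulators, 0, 3 and 2 genes of S phase and mitosis, and 0 p53 regulators at P6 and P8.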
